A study of Drosophila melanogaster with 399 samples.

Results

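The sarcomere is the contractile unit of striated muscle, and 10 genes that encode its main proteins were followed by RNA-seq through embryogenesis of Drosophila melanogaster and across embryos in which single transcription factors (TFs) were knocked down. They were chosen by gene symbol, 10 of the 17612 genes listed, with earlier results of these data known. Of the thick filament, which carries the motor, they include Mhc (the muscle myosin heavy chain), Mlc1 (the essential light chain) and Mlc2 (the regulatory light chain). Of the thin filament they include the actin genes Act57B and Act87E, the tropomyosin gene Tm2, wupA (troponin I) and up (troponin T). The last of them, sls and bt, encode the giant elastic proteins Sallimus and Projectin.

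Striated muscle pulls when the heads of the myosin heavy chain walk along actin, and tropomyosin and the troponins hold the actin closed until calcium is released. In the fly embryo the body wall muscles form from mesoderm cells that fuse into fibres, and each fibre then assembles sarcomeres. The genes for the parts of the sarcomere are known to be switched on in the fusing cells and to serve as markers of differentiated muscle, while other actins and myosins, such as Act5C and zip, serve all cells.

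RNA of whole embryos was counted, in 271 libraries from RNAi crosses against 45 TFs and in libraries of control crosses. By the study's methods, the RNAi crosses expressed a short hairpin of the TRiP collection from the Valium20 vector, with 1 hairpin per TF. The driver described there was the daughterless driver da-Gal4, present as a pair of insertions and active throughout the embryo. In most control crosses the hairpin was directed against mCherry, a fluorescent protein foreign to the fly. In place of this hairpin the labels give da-Gal4 for the E5 controls and MTD-Gal4, a maternal driver, for the twi controls. Whether these controls carried a hairpin, and whether the twi controls differ from their RNAi embryos in the driver, is not stated in these labels. Every TF was examined at 0–1.5 hours, before most zygotic genes are expressed, at 16–18 hours, and in a window between them at which the TF peaks (2 windows for Hr51 and CG9876). A library is a pool of whole embryos, and each group has 2 libraries, apart from 3 RNAi groups with 1. Libraries of a group are described as biological replicates, but whether they came from separate crosses is not stated, so the p-values measure the spread between these libraries, which may be technical. The control libraries form 21 sets, most of them shared by several TFs, so that the comparisons of such TFs share their control libraries.

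The hairpins are shown for the TFs whose RNAi embryos had at least 1 of the 10 genes called after 0–1.5 hours, or at least 3 called at any window, because every such result rests on 1 targeting sequence. Each is the 21-base target strand, 5′ to 3′, in lower case throughout, and the target genes of those printed lie on chromosome arms 3L and 3R. The hairpins against twi, Sox14 and esn are not shown.
caup: tacgattacgagtacgtttaa
scro: tagcacaaagaagaaagcgaa
TfAP-2: tacaatattcaaatatattaa
trh: aacattcaatgttgttaaata
sens: caggacgagacacacactcaa
CG15696: agcgacgggagaagcgcgaaa

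On release 6 of the genome, Mhc (FBgn0264695) spans 16766566–16788766 of arm 2L on the plus strand with 21 annotated transcripts and 9.06 kb of merged exons. Mlc1 (FBgn0002772) lies on 3R at 27657078–27660177, minus strand, with 1.41 kb of exons, and Mlc2 (FBgn0002773) on 3R at 30171438–30174551, minus strand, with 2.29 kb. Act57B (FBgn0000044) lies on 2R at 20944021–20946431, plus strand, 1.72 kb, and Act87E (FBgn0000046) on 3R at 13425983–13428375, plus strand, 1.99 kb. Tm2 (FBgn0004117) lies on 3R at 15310193–15315197, plus strand, 2.61 kb, wupA (FBgn0283471) on X at 18105568–18116922, minus strand, 1.98 kb, and up (FBgn0004169) on X at 13593474–13602578, minus strand, 2.53 kb. By far the longest are sls (FBgn0086906) on 3L at 2039681–2115611, minus strand, with 59.0 kb of exons, and bt (FBgn0005666) on chromosome 4 at 724400–776474, plus strand, with 28.0 kb. The actins are near-identical in sequence. Reads that align to more than 1 place, 0.893% to 17.1% of a library, were not counted on genes, so the levels of the actins may be too low. The exons of Act57B, Act87E and sls overlap other annotated genes over 5.57%, 60 bases and 1.85% of their length.

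Levels are CPM, counts scaled by library size and between libraries by TMM, and libraries held from 13148430 to 167412388 counts on genes (median 54799768). Several libraries stood apart and touch results below. Of the 4 control libraries at 2–4 hours, the second of the set shared by CG15696, su(Hw), gfzf and cad had 403 CPM of Mhc, against 65.9 CPM in the first, and the twi controls had 1.75 and 1.61 CPM. At 12–14 hours the 2 controls of zfh2, Sox102F and Hr3 had 2435 and 2819 CPM of Mhc, below the 6182 to 8968 CPM of the other 8. The first library of Bdp1 RNAi at 0–1.5 hours had 3.70 CPM of the maternal RNA osk, where the median of RNAi libraries at that window was 181 CPM. The RNAi libraries of caup at 10–12 hours differed from their controls in most genes. At 16–18 hours the first libraries of dmrt99B RNAi, of twi RNAi and of the twi control had their sarcomere genes out of proportion to each other.

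In control embryos the 10 genes together made up a median of 0.0286% of all counts at 0–1.5 hours, 0.0231% at 2–4 hours, 0.313% at 6–8 hours, 0.592% at 8–10 hours, 1.72% at 10–12 hours, 3.66% at 12–14 hours, 4.59% at 14–16 hours and 4.24% at 16–18 hours. The number of control libraries in these windows was 42, 4, 8, 2, 14, 10, 6 and 42. Most of the increase thus fell between 2–4 and 14–16 hours. In RNA of whole embryos, fewer muscle cells and less RNA per muscle cell cannot be told apart, here and in every comparison that follows.

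Mhc, the motor itself, had a median of 44.6 CPM at 0–1.5 hours (range 0.117 to 345), 33.8 at 2–4 hours (1.61 to 403), 351 at 6–8 hours (160 to 497), 829.4 at 8–10 hours (815 to 844), 2770 at 10–12 hours (1500 to 4188), 6493 at 12–14 hours (2435 to 8968), 8669 at 14–16 hours (7796 to 11040) and 7907 at 16–18 hours (2261 to 13870). Control libraries of 6–8, 8–10 and 10–12 hours did not overlap in Mhc, while all other neighbouring windows did. The single set at 8–10 hours gives no spread between sets. At 10–12 hours the lowest libraries, with 1573 and 1500 CPM, were the E5 controls labelled da-Gal4.

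The other thick filament genes ran in parallel. The median of Mlc1 was 88.1 CPM at 6–8 hours, 685 at 10–12 hours and 2533 at 16–18 hours, a 28.8-fold difference between the last and the first. Mlc2 had 256, 2065 and 6900 CPM at these windows, a 26.9-fold difference, against 22.6-fold for Mhc. Mlc2 was the only one of the 10 with its highest median at 16–18 hours, and the other 9 had theirs at 14–16 hours. For Mlc2 these windows hardly differed, with medians of 6841 and 6900 CPM at 14–16 and 16–18 hours. Its libraries overlapped (5397 to 7982 and 3980 to 11340 CPM), and RLE scaling reversed the order of the medians.

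Among the thin filament genes, the actin gene Act57B had medians of 86.4 CPM at 0–1.5 hours, 1203 at 6–8 hours, 5427 at 10–12 hours, 15330 at 14–16 hours and 14960 at 16–18 hours. Tm2, wupA and up, which encode parts of the calcium switch on actin, differed 25.0-, 25.3- and 24.6-fold between 16–18 and 6–8 hours. Their medians at 16–18 hours were 2472, 2148 and 3766 CPM. These values lie close to the fold of Mhc and the light chains.

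Act87E followed another course. Its median was 10.8 CPM at 0–1.5 hours, 65.2 at 2–4 hours, 263 at 6–8 hours, 144 at 8–10 hours, 224 at 10–12 hours, 1403 at 12–14 hours, 1469 at 14–16 hours and 847 at 16–18 hours. It thus stood at 31.0% of its level of 16–18 hours as early as 6–8 hours, where 8 of the 10 genes had 3.48% (Mlc1) to 8.04% (Act57B). The titin-like gene sls shared the early part, at 28.2%, with 189 CPM at 6–8 hours and 669 at 16–18 hours. For both genes the level at 14–16 hours exceeded that of 16–18 hours, at 173% of it for Act87E and 155% for sls. Act87E was at 1262 to 1806 CPM in the controls of 14–16 hours and 530 to 1333 CPM in those of 16–18 hours, and sls at 915 to 1427 and 300 to 1026 CPM. The windows thus overlapped in both genes. Projectin (bt) joined the late genes in its increase, 23.5-fold between 16–18 and 6–8 hours, with 131% of its final level at 14–16 hours.

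**Figure D1:**
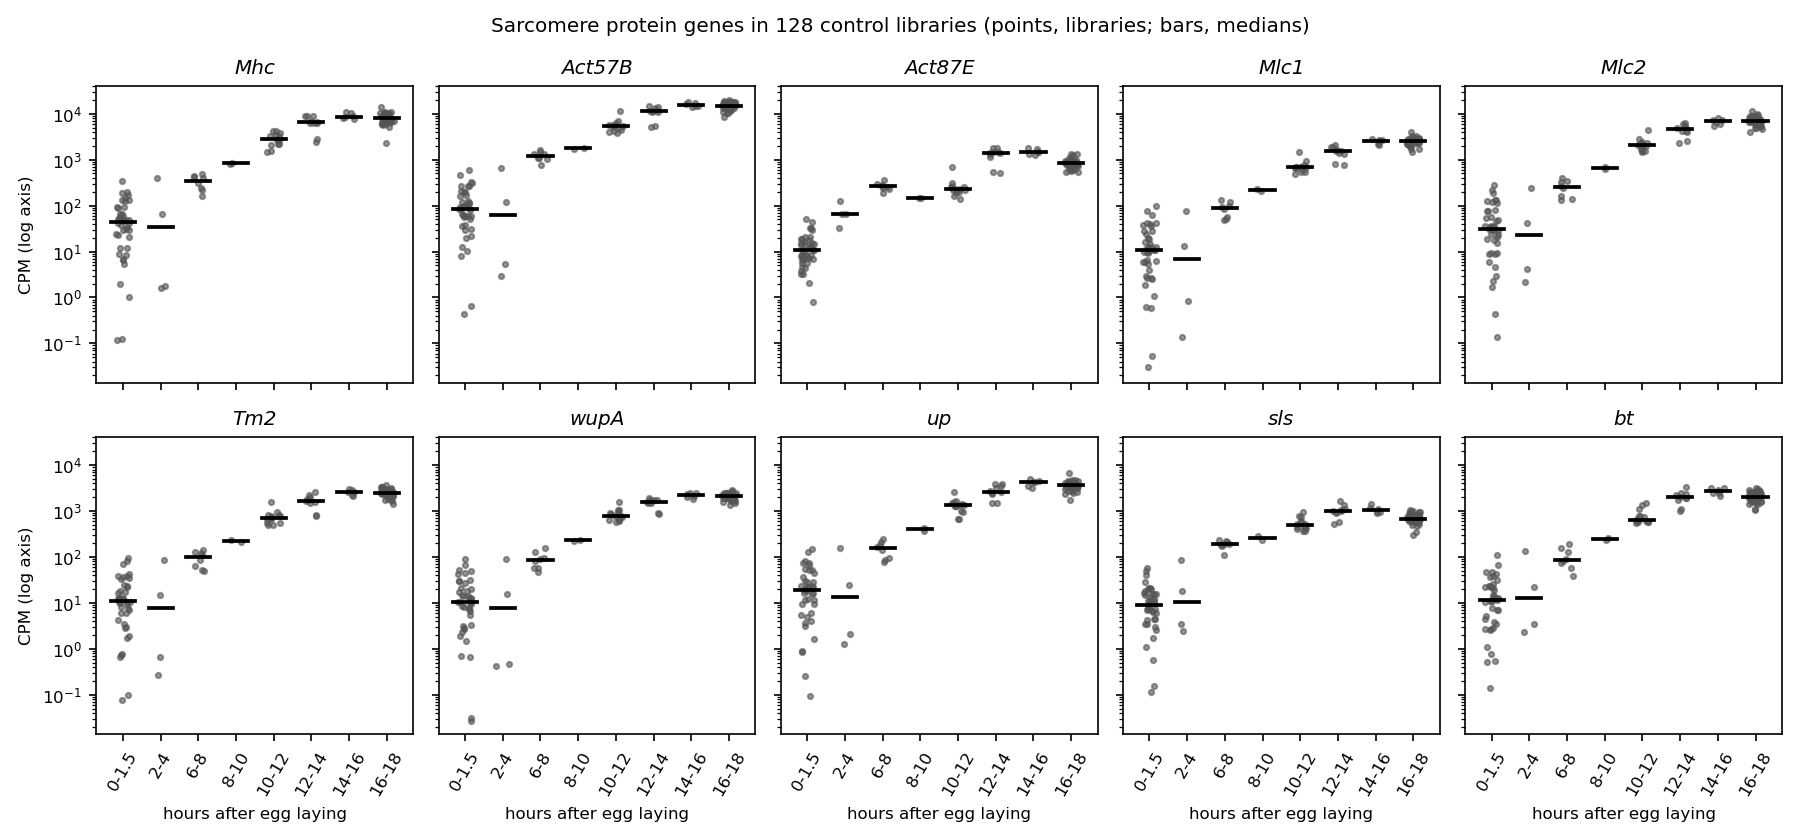
Level of each of the 10 genes in control embryos, 1 panel per gene, with CPM on a log axis against the 8 windows in hours after egg laying; points are libraries and bars their medians. Mhc rises to a median of 8669 CPM at 14–16 hours. The median of Act87E is 263 CPM at 6–8 hours, 144 at 8–10 hours (2 libraries of 1 control set) and 1403 at 12–14 hours.

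To compare neighbouring windows, edgeR's quasi-likelihood test was run with the control set as a covariate. A call required an adjusted p of 0.1 or less and a log2 fold change of 0.5 or more in size. Over all control libraries, 12 of the tests of 10 genes over 7 steps were called higher in the later window, where 16.3% of the tests of all genes were. None was called lower, where 10.7% of all tests were, though 1 had an unadjusted p under 0.05 with a lower level and DESeq2 called 1. All 10 were higher at 6–8 than at 2–4 hours, a step at which 29.1% of all genes were called higher. The largest fold change was that of Act57B (log2 fold change 3.58) and the smallest that of Act87E (1.54), and Mhc had 2.35 (SE 1.05, edgeR adjusted p = 0.0574). Act87E was also called at 2–4 over 0–1.5 hours (3.06, edgeR adjusted p = 8.92e-10), where 37.4% of all genes were higher, and at 12–14 over 10–12 hours (2.12, edgeR adjusted p = 6.58e-07), where 19.9% were.

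The early windows vary most between libraries, and a fit of the control libraries of 6–8 hours and later alone, chosen after the data had been seen, called more steps. At 8–10 over 6–8 hours 9 genes were higher, where 17.9% of all genes were, with bt the most (log2 fold change 1.8), Mhc at 1.55 and Act57B at 0.65, while Act87E had −0.64 (edgeR adjusted p = 0.185). At 10–12 over 8–10 hours 8 were higher (16.8% of all genes), Mlc2 the most with 2.03, and Act87E had 0.48 (adjusted p = 0.334) and sls 0.56 (adjusted p = 0.186). At 12–14 over 10–12 hours all 10 were higher (26.8% of all genes), now with Act87E the most at 2.54 (edgeR adjusted p = 1.8e-18), Mhc at 1.31 and sls the least at 0.93.

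The last steps were small. At 14–16 over 12–14 hours Act57B (0.51), Mlc1 (0.61) and Tm2 (0.50) were higher in this fit, where 15.8% of all genes were. At 16–18 over 14–16 hours Act87E (−1.09, edgeR adjusted p = 1.09e-06) and sls (−0.67, adjusted p = 0.000651) were lower, where 14.4% of all genes were. The counts of each step were the same without the twi controls of 16–18 hours, of which 1 stood apart.

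Levels of different genes were compared per kilobase of merged exons. At 16–18 hours the medians were 8677 CPM per kb for Act57B, 3018 for Mlc2, 1791 for Mlc1, 1489 for up, 1086 for wupA, 946 for Tm2, 873 for Mhc, 426 for Act87E, 72.8 for bt and 11.3 for sls. Neighbours in this order kept their places in 41 or all of the 42 libraries, except among wupA, Tm2 and Mhc. There wupA exceeded Tm2 in 32 libraries (median ratio 1.16) and Tm2 exceeded Mhc in 30 (median ratio 1.02). The order of these 3 genes was thus less steady, and wupA and Mhc were not compared directly. At 6–8 hours Act87E, at 132 CPM per kb, stood second after Act57B (698) and above Mlc2 (112) in 6 of 8 libraries. At that window sls (3.20) and bt (3.09) could not be ordered, sls being higher in 3 of 8.

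Few of the tests of the 10 genes were called after knockdown of a TF, and few of the tests of all genes were either. In the 47 comparisons at the middle windows, 2–4 to 14–16 hours, 17 of 470 tests of the 10 genes were called lower in RNAi embryos, where 2.75% of all tests were, and 7 were called higher, where 4.27% were. They came from 3 comparisons, caup at 10–12 hours, scro at 12–14 hours and twi at 2–4 hours, and the other 44 had none, though DESeq2, run as an alternative, called 5 genes for Sox14 and 1 for trh at 6–8 hours. The share of all genes that DESeq2 called is not given, here or below, so its counts have no background. In 407 of the 470 tests the log2 fold change was under 0.5 in size, with a median of −0.06 over all tests and a median SE of 0.17 for Mhc. An unadjusted p under 0.05 was reached by 58. At 16–18 hours 5 of 450 tests were called lower, where 1.70% of all tests were, from 3 of 45 TFs. None was called higher there, where 2.33% of all tests were, against 22 at an unadjusted p under 0.05 and 2 by DESeq2. The size was under 0.5 in 423 of the 450, and the median SE for Mhc was 0.12.

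**Figure D2:**
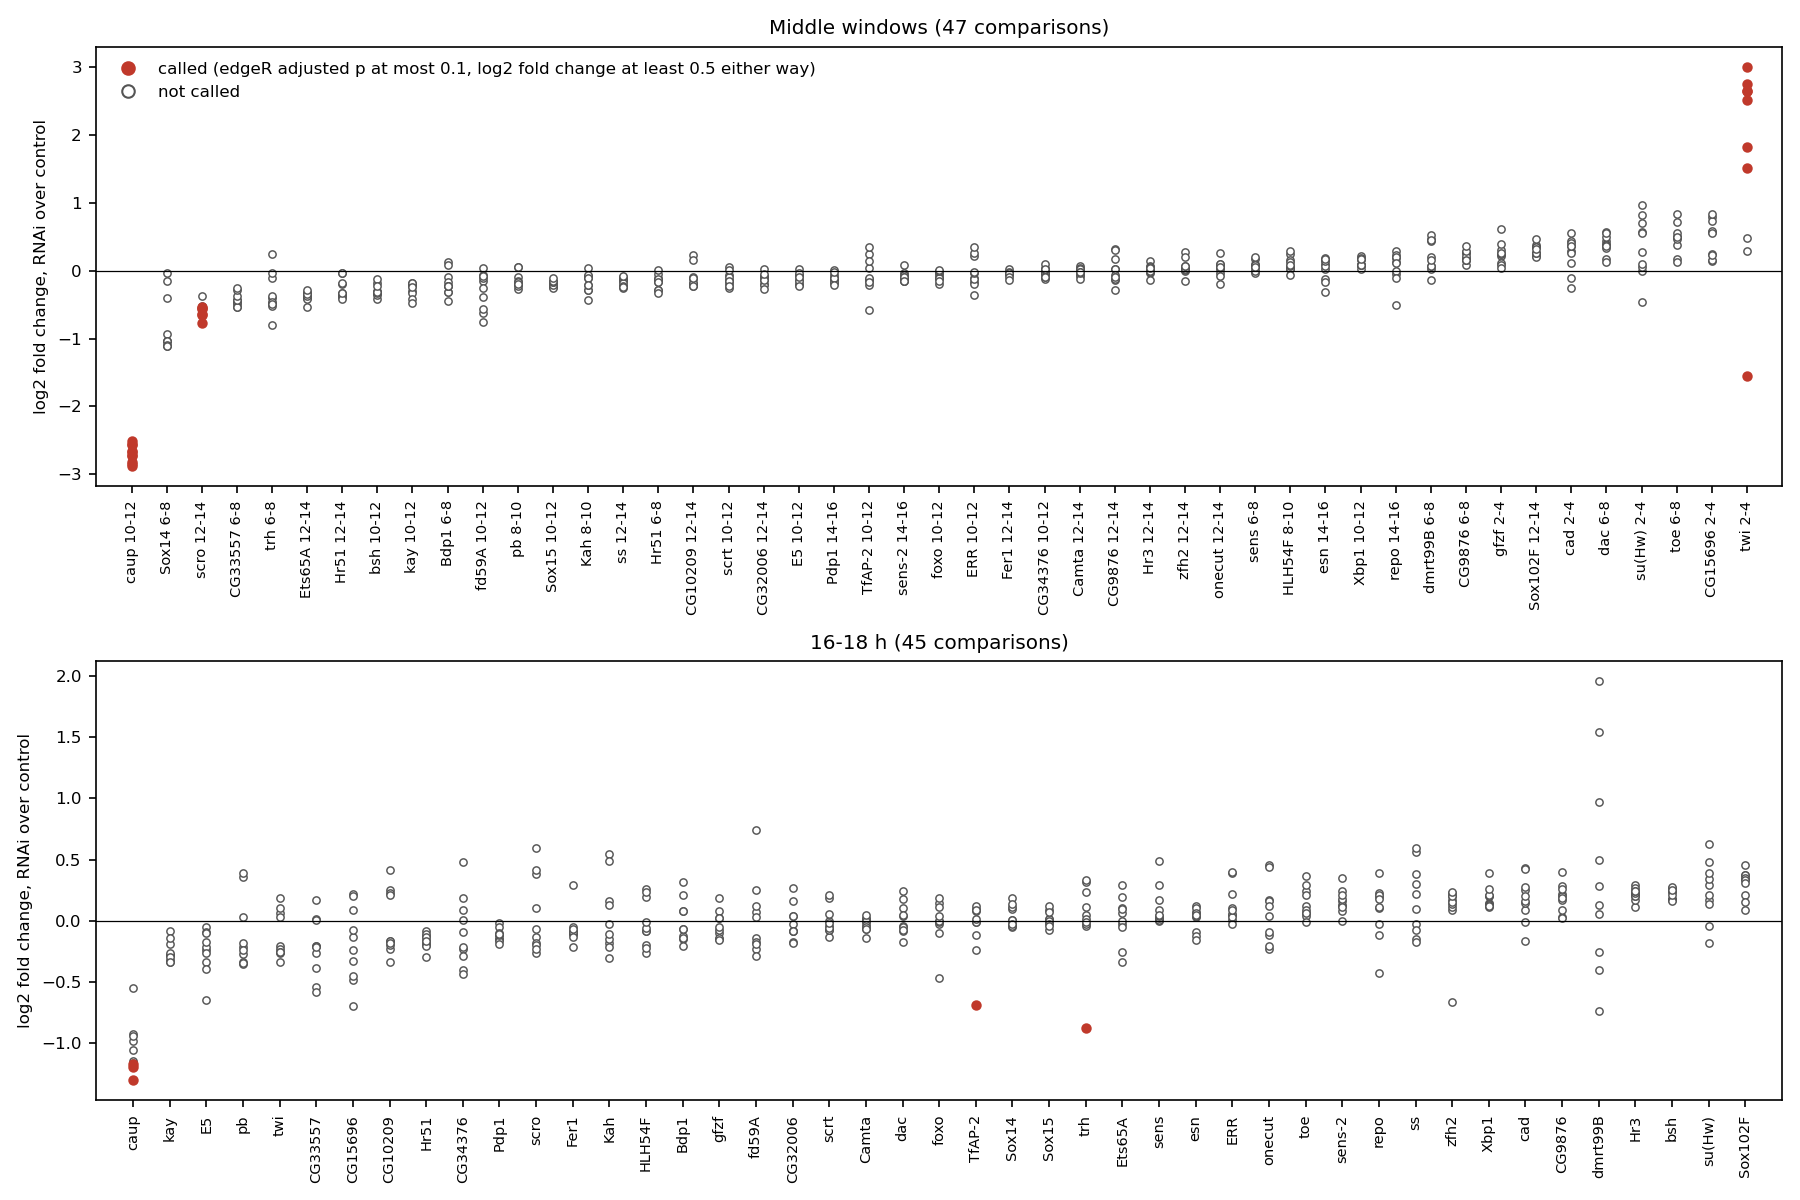
Log2 fold change of each of the 10 genes, RNAi over control, in 47 comparisons at the middle windows (top) and 45 at 16–18 hours (bottom); each point is 1 TF and window, and red points were called by edgeR at an adjusted p of at most 0.1 and a log2 fold change of at least 0.5 either way. Most points lie within 0.5 of 0, and the outlying red points are caup RNAi below and twi RNAi above in the top panel.

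caup encodes a homeodomain protein of the Iroquois complex, best known for patterning the thorax and the lateral muscles. In caup RNAi embryos at 10–12 hours all 10 sarcomere genes were called lower than in the controls, which caup shares with fd59A. This was a comparison in which 49.5% of all genes were lower and 35.4% higher, with a median log2 fold change over all genes of −1.17 after TMM and −0.57 after RLE scaling. The level of caup itself was 2.81 and 0.759 CPM in RNAi embryos and 37.3 and 34.8 CPM in controls (log2 fold change −4.22, edgeR adjusted p = 0.00624).

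Mhc was at 707 and 159 CPM in caup RNAi embryos at 10–12 hours, against 3341 and 3477 CPM in controls. The groups were far apart, with the second RNAi library the lower, and the difference was 7.34-fold (log2 fold change −2.88, SE 0.68, edgeR adjusted p = 0.0192). It was −2.34 after RLE scaling and between −4.54 and −2.17 when 1 library was left out. This was the largest fold change of the 10, and the smallest was that of Mlc1, at 164 and 51.6 CPM in RNAi embryos and 648 and 682 CPM in controls (log2 fold change −2.51, SE 0.52, edgeR adjusted p = 0.0136). Again no RNAi library reached a control.

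The remaining genes fell into the narrow range between these. The log2 fold change was −2.65 for Mlc2, −2.67 for Act57B, −2.82 for Tm2, −2.55 for wupA, −2.73 for up, −2.71 for sls and −2.56 for bt. Act87E, with its own course in controls, was at 47.6 and 13.4 CPM in RNAi embryos and 222 and 251 CPM in controls (log2 fold change −2.84). In all 10 both RNAi libraries lay below both controls, as in 58.7% of all genes, and below all 14 control libraries of the window, as in 52.1% of all genes. All 10 calls were also made after RLE scaling, without the filter, by DESeq2 and without any 1 library.

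Most of the other muscle genes were lower too, and markers of other tissues moved with them. Of the other thick filament genes all 5 tested were lower, Prm (paramyosin) by a log2 fold change of −2.91, of the other thin filament and Z-disc genes 13 of 15 were lower and 1 higher (median −2.61), and of the calcium handling genes all 5 were lower. The muscle attachment genes were split, with 4 of 9 lower, among them the integrin subunit genes if and mew, and 5 higher, among them the integrin subunit gene mys (log2 fold change 2.09) and Ilk (2.48), and their summed levels were 4077 to 4723 CPM in RNAi embryos and 2102 to 2148 CPM in controls. The thin filament gene that was higher was Tm1, a tropomyosin gene with both muscle and cytoskeletal forms, at 4311 and 4152 CPM in RNAi embryos and 1280 and 1367 CPM in controls. Of 13 muscle transcription factor genes 11 were lower, of 10 myoblast fusion genes 9 were lower and 1 higher, and of 9 visceral and cardiac mesoderm genes all were lower. All 8 neuron genes were lower as well, with summed levels of 39.2 to 165 CPM in RNAi embryos and 469 to 543 CPM in controls, and so were all 8 cuticle genes, at 159 to 543 CPM in RNAi embryos and 2184 to 2292 CPM in controls, and 5 of 7 hemocyte and fat body genes.

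In the other direction, all 5 nonmuscle actin and myosin genes were higher in caup RNAi embryos (median log2 fold change 2.27). Act5C, the cytoplasmic actin, was at 24660 and 25060 CPM in RNAi embryos and 4261 and 4327 CPM in controls. Of 8 maternal RNA genes 6 were higher, with summed levels of 1974 to 2033 CPM in RNAi embryos and 228 to 265 CPM in controls. The anterior determinant bcd was at 1368 and 1265 CPM in RNAi embryos, against 100 and 122 CPM in controls. The part of these shifts in the lower sarcomere genes was not tested.

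By 16–18 hours 3 of the 10 were called lower in caup RNAi embryos, where 18.5% of all genes were. They were Mhc, Tm2 (log2 fold change −1.20, edgeR adjusted p = 0.088) and up (−1.17, adjusted p = 0.0998). Mhc was at 5500 and 2722 CPM in RNAi embryos and 9000 and 8583 CPM in controls, again without overlap (log2 fold change −1.31, SE 0.53, edgeR adjusted p = 0.0917). Projectin changed least, with 1663 and 793 CPM of bt in RNAi embryos and 1491 and 1632 CPM in controls (log2 fold change −0.55, adjusted p = 0.371). Its groups overlapped, while those of the other 9 lay apart, as in 43.2% of all genes. No call of the 3 was made after RLE scaling or without either control library, while 10 were made without the first RNAi library and 8 without the second.

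The maternal RNA genes were higher here in all 8 cases, at 1642 to 3336 CPM in RNAi embryos and 174 to 186 CPM in controls, and so were all 5 nonmuscle actin and myosin genes, where 30.2% of all genes were higher. Of the other muscle genes 8 of 15 thin filament and Z-disc genes, 3 of 6 thick filament genes, 1 of 5 calcium handling genes, 4 of 9 visceral and cardiac mesoderm genes and 1 of 13 muscle transcription factor genes were lower, of the myoblast fusion genes 2 of 10 were lower and 1 higher, and of the muscle attachment genes 3 of 9 were lower and 2 higher. Of other tissues, 4 of 8 cuticle genes and 1 of 8 neuron genes were lower, and of the hemocyte and fat body genes 4 of 7 were lower and 1 higher. The change of the sarcomere genes differed between the windows of caup. In 1 model over both windows the difference, 10–12 minus 16–18 hours, had an adjusted p of 0.1 or less for all 10, from −2.95 for bt to −2.44 for Mlc2, where 54.5% of all genes were called. After RLE scaling it was between −1.73 and −1.20, and none was called (smallest adjusted p 0.267).

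scro encodes an NK-type homeodomain protein expressed in the pharynx and the nervous system. In scro RNAi embryos at 12–14 hours 6 of the 10 genes were lower, where 12.7% of all genes were: bt, wupA (log2 fold change −0.65), Mlc1 (−0.64), Tm2 (−0.56), Mlc2 (−0.55) and Act57B (−0.53), at edgeR adjusted p from 0.0459 to 0.0918. The largest change was that of bt, at 1375 and 1241 CPM in RNAi embryos and 1913 and 2382 CPM in controls (−0.77, SE 0.20, edgeR adjusted p = 0.0459). The smallest was that of Mhc, at 5259 and 4857 CPM in RNAi embryos and 6206 and 6322 CPM in controls (−0.37, adjusted p = 0.159). In neither gene did the groups overlap.

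Act87E (−0.55), up (−0.54) and sls (−0.52) had adjusted p of 0.107, 0.102 and 0.102 and were not called. All 10 genes were below both controls in both libraries, as were 40.4% of all genes. No gene of the 10 was called without either RNAi library or after RLE scaling, and 3 were called by DESeq2. The transcript of scro itself was at 18.6 and 10 CPM in RNAi embryos and 16.3 and 13.6 CPM in controls, with overlap (log2 fold change −0.14, edgeR adjusted p = 0.737).

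Other tissues shifted in the scro libraries at 12–14 hours as well. Of the neuron genes 7 of 8 were lower, with sums of 559 and 560 CPM in RNAi embryos and 783 to 1104 CPM in controls, of the nonmuscle actin and myosin genes 4 of 5 were higher, and of the maternal RNA genes 3 of 8 were higher, where 22.5% of all genes were. Act5C was at 6741 and 5816 CPM in RNAi embryos and 3213 and 2382 CPM in controls. Of the other thin filament and Z-disc genes 5 of 16 were lower, and of the muscle transcription factor genes 2 of 13. The part of these shifts in the sarcomere result was not tested.

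None of the 10 was called at 16–18 hours in scro RNAi embryos (1 at an unadjusted p under 0.05, 0 by DESeq2). Mhc was at 8188 and 9301 CPM in RNAi embryos and 6758 and 6580 CPM in controls (log2 fold change 0.38). For sls the values were 836 and 888 CPM in RNAi embryos and 613 and 521 CPM in controls (0.59, edgeR adjusted p = 0.868). Both genes were thus higher in both RNAi libraries than in the controls, though the share of all genes that were is not given. In the second of these controls sls (521 CPM) and bt (1595 CPM) lay below the control medians of the window, 669 and 2039 CPM. Its Act57B, at 18390 CPM, lay above the median of 14960 CPM. The part of this library in the scro values was not tested. A difference between the windows was called for 10.1% of all genes. Of the 10 it was called for bt (−1.44), sls (−1.36), Mhc (−0.99) and up (−0.87), at edgeR adjusted p from 0.0897 to 0.0962. None of these was called after RLE scaling. With those of caup they were the 14 differences called over all TFs, where 1.75% of the tests of all genes were called.

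twi, the bHLH factor that specifies the mesoderm from which all muscle arises, was examined at 2–4 hours, before the sarcomere genes are strongly expressed. In twi RNAi embryos 7 of the 10 were higher, where 18.5% of all genes were, and Act87E was lower, where 14.7% were. Mhc was at 5.57 and 18.7 CPM in RNAi embryos and 1.75 and 1.61 CPM in controls (log2 fold change 2.76, SE 0.61, edgeR adjusted p = 0.0322). Tm2 changed most, at 3.14 and 4.86 CPM in RNAi embryos and 0.678 and 0.263 CPM in controls (3.01, adjusted p = 0.0262). In both genes the groups were apart, and all values were far below those of the other control set, which had 65.9 and 403 CPM of Mhc.

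Act87E was the exception here as in the course of the controls. It was at 27.2 and 20.2 CPM in twi RNAi embryos and 64.3 and 66.0 CPM in controls (log2 fold change −1.55, SE 0.18, edgeR adjusted p = 0.0163). Its groups lay apart. The other control set at 2–4 hours, with 32.1 and 125 CPM, lay on either side of the twi controls and above both RNAi libraries. The elastic protein genes were not called, sls at 3.36 and 4.51 CPM in RNAi embryos and 3.49 and 2.49 CPM in controls (0.30, adjusted p = 0.549), with overlap, and bt with a log2 fold change of 0.49 (adjusted p = 0.281). Of the others Act57B had 2.51, Mlc1 2.66, Mlc2 1.83, wupA 2.65 and up 1.51. In 8 of the 10 both RNAi libraries lay above both controls, as in 39.4% of all genes, and Act87E lay below, as did 27.3%.

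These calls at 2–4 hours were made with both RNAi libraries only, and without the first or the second no gene of the 10 was called. The transcript of twi was at 75.3 and 97.1 CPM in RNAi embryos and 179 and 191 CPM in controls (log2 fold change −1.19, edgeR adjusted p = 0.0175). Of the neuron genes 4 of the 6 tested were also higher and 1 lower, of the cuticle genes 4 of 7 were higher, and bcd was lower, at 49.9 and 47.02 CPM in RNAi embryos and 140 and 135 CPM in controls. The part of these shifts was not tested. The labels of these controls name a driver, MTD-Gal4, in place of a hairpin, so the crosses may differ in more than the hairpin. Sums of the muscle transcription factor genes were 241 to 255 CPM in RNAi embryos and 358 to 365 CPM in controls, with 3 of 11 lower and 2 higher. No gene of the 10 was called in twi RNAi embryos at 16–18 hours (0 at an unadjusted p under 0.05, 0 by DESeq2), with Mhc at 2674 and 6672 CPM in RNAi embryos and 2261 and 6795 CPM in controls.

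**Figure D3:**
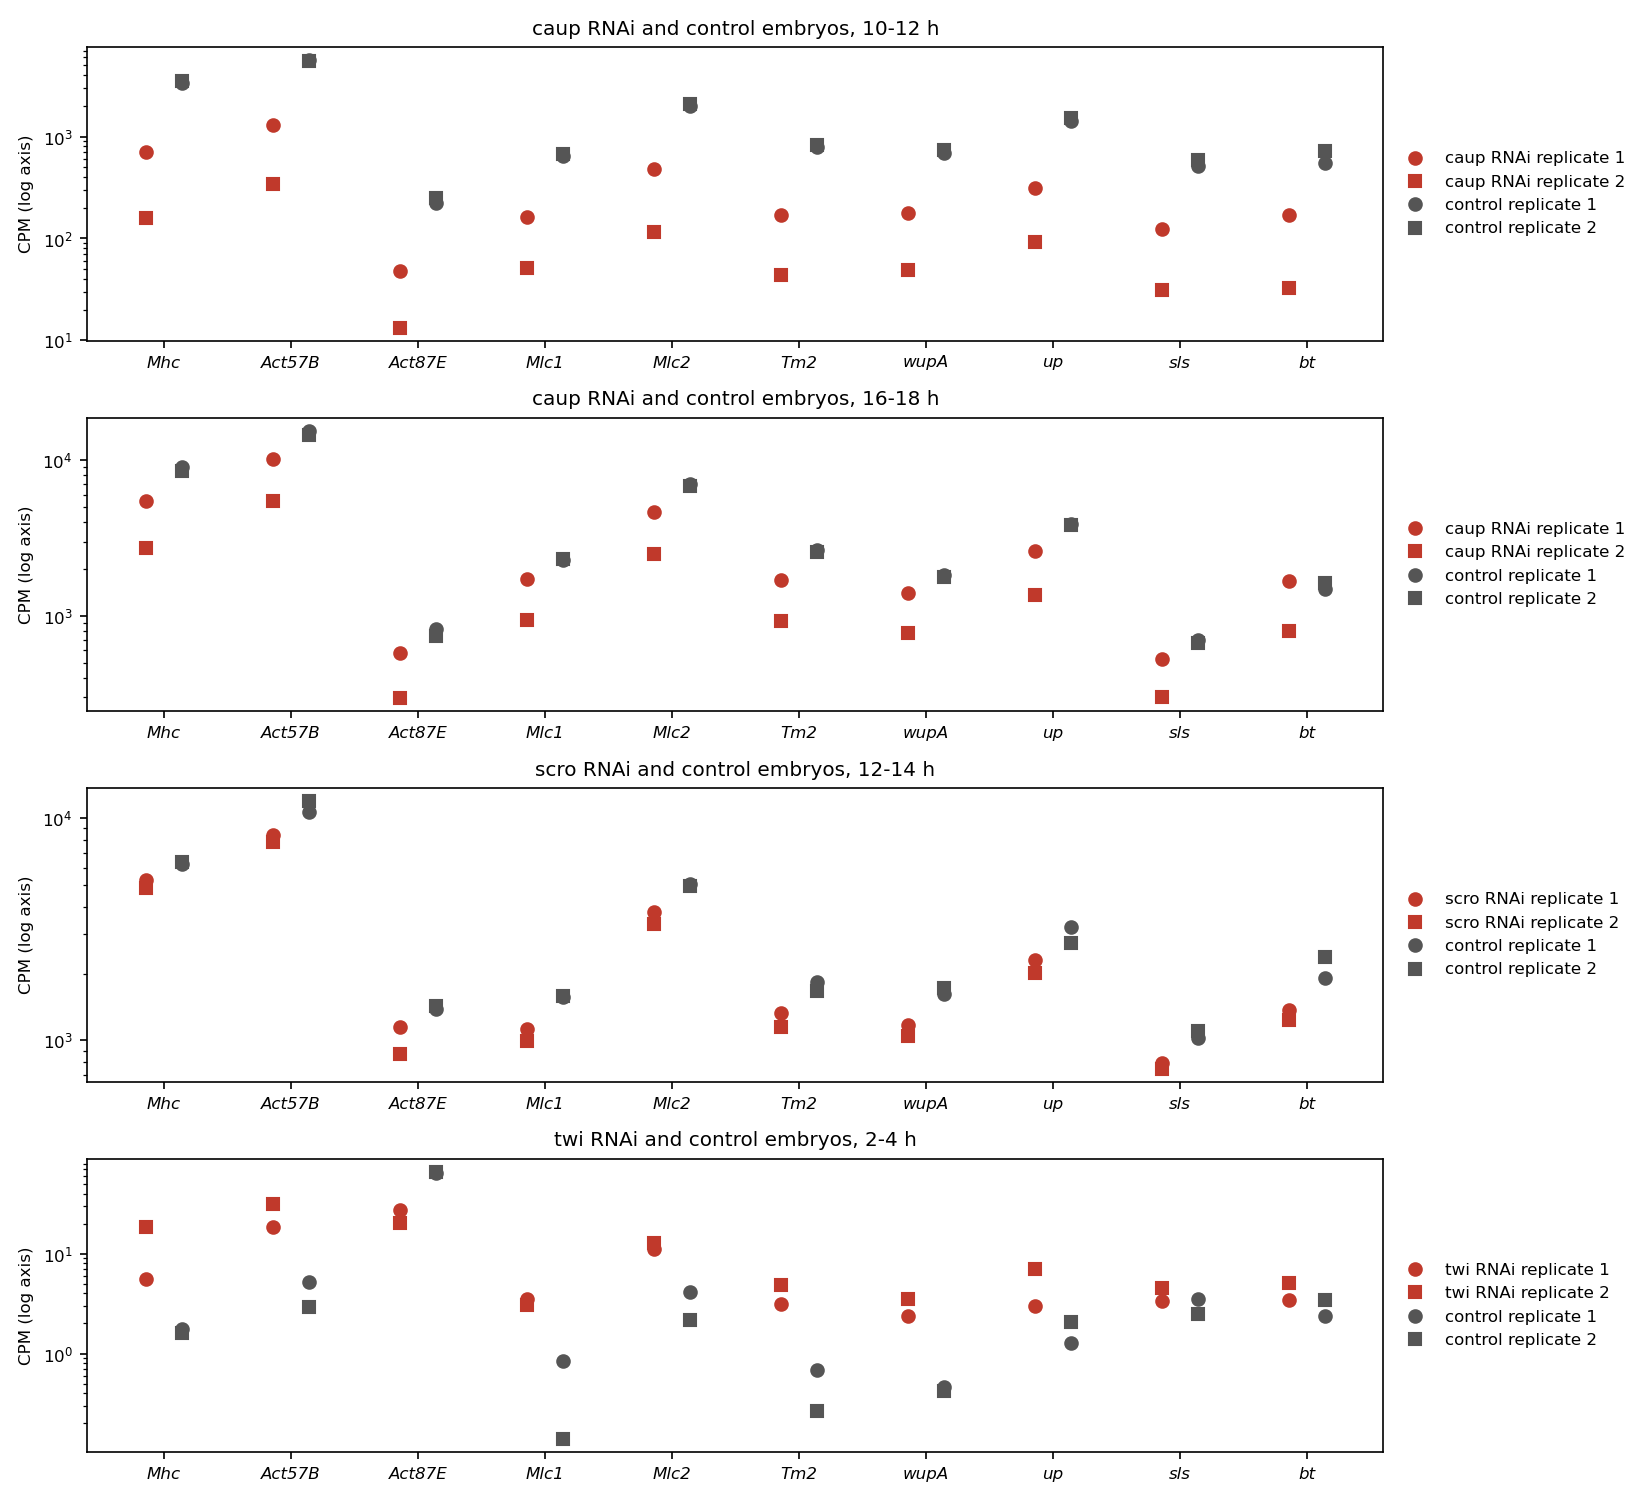
CPM of the 10 genes in each library of 4 comparisons, on log axes, with RNAi libraries (red) left of control libraries (grey) for each gene, circles for replicate 1 and squares for replicate 2: caup at 10–12 and 16–18 hours, scro at 12–14 hours and twi at 2–4 hours. For caup at 10–12 hours the RNAi points lie far below the control points, as for Mhc at 707 and 159 against 3341 and 3477 CPM, and for twi at 2–4 hours Act87E is the gene with RNAi points below both controls.

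Single genes were called in 2 more comparisons. In TfAP-2 RNAi embryos at 16–18 hours, where 4.18% of all genes were lower, Act87E was at 508 and 565 CPM in RNAi embryos and 803 and 905 CPM in controls (log2 fold change −0.69, SE 0.11, edgeR adjusted p = 0.0328). Both RNAi libraries were below both controls, as in 24.6% of all genes, and the other 9 genes lay between −0.24 and 0.12. The value was between −0.78 and −0.59 without any 1 library. At 10–12 hours Act87E was at 389 and 290 CPM in TfAP-2 RNAi embryos and 677 and 315 CPM in controls (−0.58, adjusted p = 0.999), with overlap, and the first control library was the highest of the 14 of that window in this gene.

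In trh RNAi embryos at 16–18 hours, where 0.775% of all genes were lower, the light chain gene Mlc2 was at 3809 and 3916 CPM in RNAi embryos and 6269 and 7566 CPM in controls (log2 fold change −0.88, SE 0.09, edgeR adjusted p = 0.0521). Both RNAi libraries lay below all 42 control libraries of the window, as did 1.72% of all genes, and the other 9 sarcomere genes lay between −0.05 and 0.33. The call was lost without the first RNAi library (−0.86, adjusted p = 0.104) and without the second (−0.86, adjusted p = 0.236). At 6–8 hours Mlc2 was at 256 and 154 CPM in trh RNAi embryos and 342 and 391 CPM in controls (−0.79, edgeR adjusted p = 0.22), without overlap. How many of all genes lay apart there is not given. trh encodes the bHLH-PAS factor of the tracheae and TfAP-2 a factor of the limbs and the brain. Their own transcripts were not called, with 24.8 and 27.1 CPM of trh in RNAi embryos and 31.1 and 39.7 CPM in controls, and 6.66 and 7.66 CPM of TfAP-2 in RNAi embryos and 9.74 and 11.6 CPM in controls.

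For several TFs with known parts in muscle none of the 10 was called. For Pdp1, a bZIP factor that binds muscle genes, Mhc at 14–16 hours was at 9445 and 10110 CPM in RNAi embryos and 10420 and 11040 CPM in controls, and the median log2 fold change of the 10 was −0.11 there and −0.12 at 16–18 hours. For HLH54F, needed for the longitudinal visceral muscles, the median was 0.08 at 8–10 hours. For the nuclear receptors ERR at 10–12 hours and Hr3 at 12–14 hours it was −0.07 and 0.01. At an unadjusted p under 0.05 Pdp1 had 2 lower genes at 14–16 hours and 4 at 16–18 hours, ERR had 1 higher at 10–12 hours, and HLH54F and Hr3 had 0, and DESeq2 called 0 in each.

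The largest median without a call at a middle window was that of Sox14 at 6–8 hours, where 0.0729% of all genes were lower. Mhc was at 302 and 165 CPM in Sox14 RNAi embryos and 447 and 497 CPM in controls (log2 fold change −0.94), and the median of the 10 was −1.03. The groups of Mhc did not overlap, and 8 of the 10 genes had an unadjusted p under 0.05, with a smallest edgeR adjusted p of 0.209, and DESeq2 called 5. For these measures the shares of all genes are not given. The genes with an early level in controls had −0.15 (Act87E) and −0.03 (sls).

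At 16–18 hours 3 libraries had sarcomere genes out of proportion to each other. In the first dmrt99B RNAi library wupA was at 13350 CPM, 6.22 times the median of the 42 controls of the window, Mlc1 at 12710 CPM (5.02 times) and Mlc2 at 23540 CPM (3.41 times). In the same library Act57B was at 6053 CPM (0.405 times), and the long genes sls and bt were at 0.482 and 0.454 times. The short genes other than the actins were thus high and the long ones low, and the 10 most abundant genes of that library took 53.6% of its counts. The second dmrt99B RNAi library had 2196 CPM of wupA, against 1940 and 2260 CPM in the controls.

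In the first libraries of twi RNAi and of its control the long genes were low as well, but the short genes were not all high. In twi RNAi sls, bt and Mhc were at 0.268, 0.299 and 0.338 times the median and Mlc1 at 1.81 times, and in the twi control Mhc was at 0.286 and Mlc2 at 1.64 times. The short gene up was at 0.864 times in twi RNAi and at 0.464 times in the twi control, there as low as sls (0.448) and bt (0.527), and Act57B was at 0.575 times in twi RNAi and 0.702 times in the twi control. The mean log2 of the CPM of sls, bt and Mhc minus that of Mlc1, Mlc2, Tm2 and wupA, which leaves out up and the actins, was −3.23 in the dmrt99B RNAi library, −2.80 in the twi RNAi library and −2.35 in the twi control. Over the window its median was −0.28 in 90 RNAi libraries and −0.42 in 42 control libraries. Less far out was, among others, the second control library shared by onecut, scro and ss, at −1.085. None of the 10 genes was called for dmrt99B at 16–18 hours (0 at an unadjusted p under 0.05, 0 by DESeq2). Without its first RNAi library none was called by edgeR either (2 at an unadjusted p under 0.05, smallest adjusted p 0.321). Without the first twi RNAi library, or without the first twi control, no gene was called in that comparison (0 at an unadjusted p under 0.05 in both), with medians of 0.11 and −0.31 on the log2 scale.

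**Figure D4:**
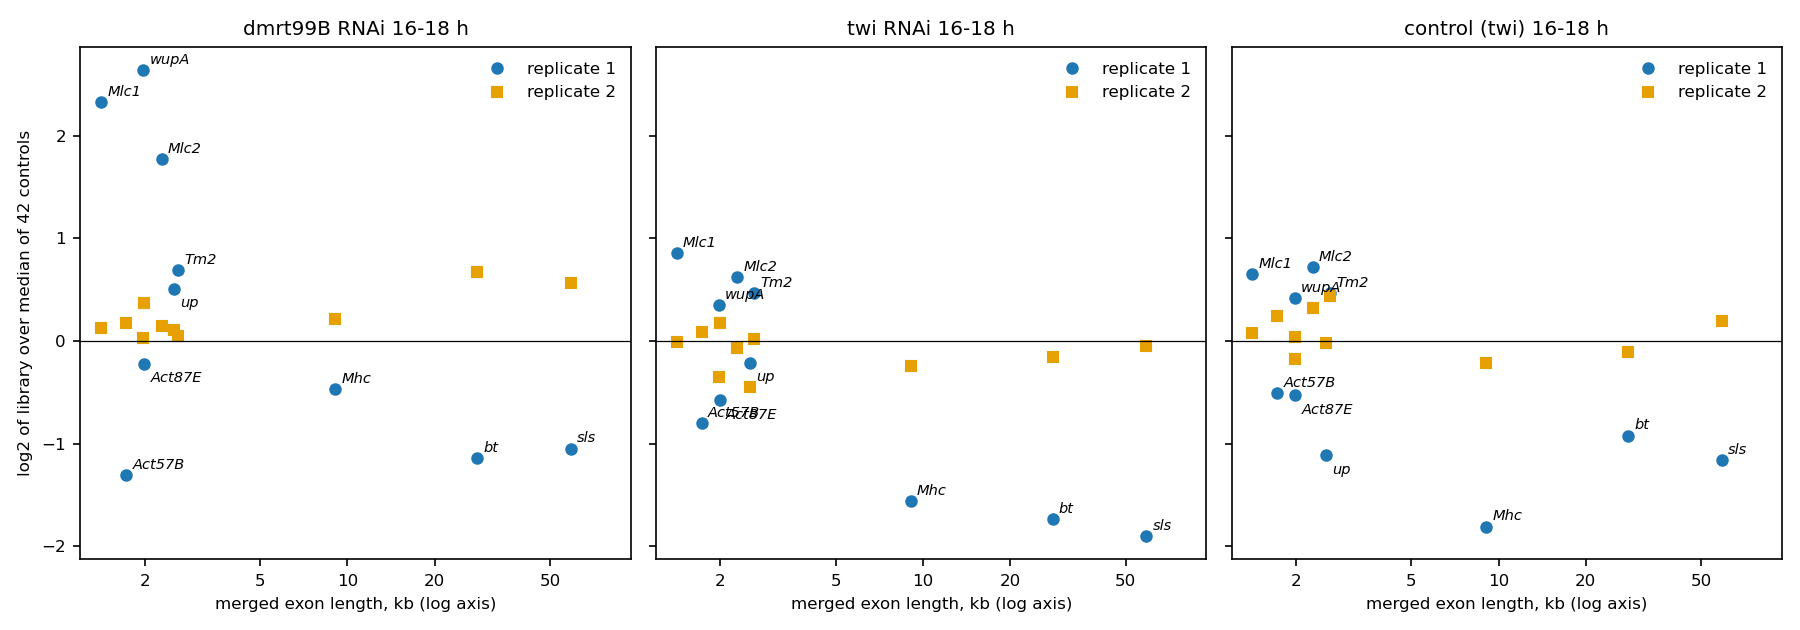
Level of each of the 10 genes in both libraries of dmrt99B RNAi, twi RNAi and the twi control at 16–18 hours, 1 panel per group, as log2 of the ratio to the median of the 42 control libraries of that window (line at 0), against the length of merged exons in kb on a log axis; circles with gene names are replicate 1 and squares replicate 2. The long genes sls and bt lie below 0 in the 3 first libraries, and wupA in dmrt99B RNAi lies highest, at 6.22 times the median.

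At 0–1.5 hours, before the embryo makes muscle, the 10 genes were still counted and differed widely between libraries. Over the 130 libraries of this window Mhc was between 0.554 and 786 CPM in 88 RNAi libraries (median 32.2) and between 0.117 and 345 CPM in 42 controls (median 44.6), a 6740-fold range in all. The median of the 10 genes in a library was at 0.461% of the level of 16–18 hours, with a range of 0.00267% to 8.96%. Above 1% were 27 libraries, 16 of RNAi and 11 of control embryos, and 16 were below 0.1%. The highest were the second Kah RNAi library (786 CPM of Mhc), the first Bdp1 RNAi library (636 CPM) and the second control library of Ets65A and CG32006 (345 CPM). Replicate libraries of a group differed by a median of 2.21-fold in Mhc for RNAi and 3.92-fold for control embryos, against 1.14- and 1.09-fold at 16–18 hours, while at 2–4 hours the 5 RNAi and 2 control pairs differed by 5.48- and 3.60-fold.

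The 10 genes varied together there, and other late genes varied with them. Across the 130 libraries Pearson's r of a gene's log2(CPM + 1) with the mean of the 10 was 0.88 (Act87E) to 0.99, with a median of 0.98. For Prm and the collagen gene Col4a1 r was 0.98, for the synaptic gene nSyb 0.94, and the median was 0.82 over neuron genes and 0.83 over cuticle genes. It was −0.04 over the maternal RNA genes. Act88F, the actin of the flight muscle that embryos lack, had a median of 0 CPM and r of 0.27. The points share windows, control sets and depth scaling, so r is a description only.

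**Figure D5:**
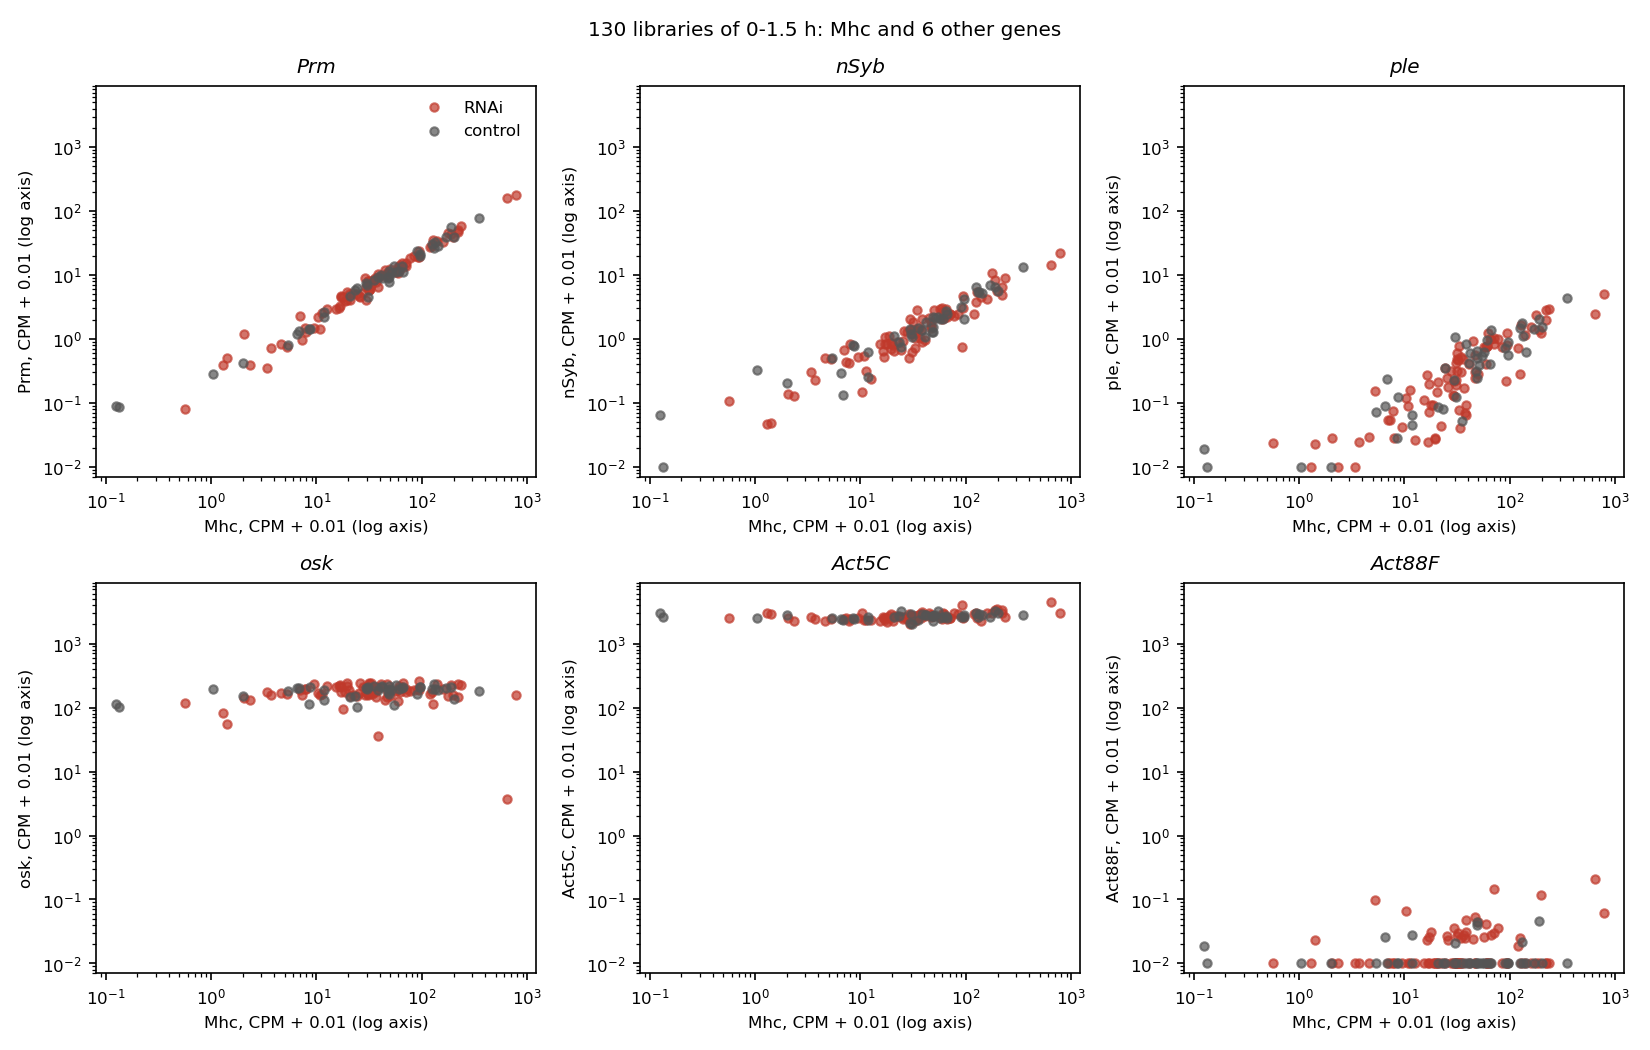
Mhc against Prm, nSyb, ple, osk, Act5C and Act88F in the 130 libraries of 0–1.5 hours, 1 panel per gene, in CPM on log axes after adding 0.01; points are RNAi and control libraries. Prm and nSyb follow Mhc over its range of 0.117 to 786 CPM, whereas osk, with a median of 181 CPM in RNAi libraries, does not follow it, and its lowest RNAi libraries are at 3.70 CPM (Bdp1), 35.8 CPM (TfAP-2) and 55.3 CPM (twi).

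In RNAi embryos of 0–1.5 hours 35 of 449 tests of the 10 genes were called lower, where 0.764% of all tests were, and 5 were called higher, where 0.267% were. They came from 6 comparisons, of which CG15696, with a single RNAi library, gave 6 of the lower calls, and the other 39 had none, though DESeq2 called 10 for CG32006, 8 for Bdp1 and 6 each for Sox15 and zfh2. Shares of all genes called by DESeq2 are not given, so its counts have no background here. The median SE of Mhc was 0.68, and 184 of the tests had a log2 fold change of at least 1 in size. The 3 comparisons with the most calls, Sox14, trh and sens, share the same 2 control libraries.

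In Sox14 RNAi embryos all 10 were lower, where 12.0% of all genes were. Mhc was at 7.70 and 4.64 CPM in RNAi embryos and 94.9 and 60.3 CPM in controls (log2 fold change −3.44, edgeR adjusted p = 5.57e-05). Tm2 changed most, at 1.99 and 1.18 CPM in RNAi embryos and 24.8 and 17.6 CPM in controls (−3.53), and Act87E least, at 8.18 and 4.69 CPM in RNAi embryos and 14.1 and 11.03 CPM in controls (−0.76, adjusted p = 0.0686). Both RNAi libraries lay below both controls in these 3 genes, as they did in 77.5% of all genes. Act87E was not called without the second RNAi library (−0.45) or without the first control (−0.58). Of the neuron genes 7 of 8 and of the cuticle genes 6 of 8 were lower as well, while the maternal RNA genes had a median log2 fold change of 0.05. The part of these shifts was not tested.

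In trh RNAi embryos 9 were lower, where 10.5% of all genes were. Mhc was at 17.2 and 17.1 CPM in RNAi embryos and 94.9 and 60.3 CPM in the same controls (log2 fold change −2.04). Mlc2 changed most, at 9.74 and 10.5 CPM in RNAi embryos and 76.8 and 54.6 CPM in controls (−2.55, edgeR adjusted p = 7.2e-08), without overlap. Act87E had 8.68 and 10.4 CPM in RNAi embryos (−0.26, adjusted p = 0.593) and was not called, although both values lay below the controls, as in 54.3% of all genes. Of the neuron genes 6 of 8 and of the cuticle genes 5 of 8 were lower.

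In sens RNAi embryos 7 were lower, where 1.59% of all genes were. Mhc was at 37.6 and 25.2 CPM in RNAi embryos (log2 fold change −1.20, edgeR adjusted p = 0.0347), below both controls. Mlc1 changed most, at 9.42 and 6.17 CPM in RNAi embryos and 28.5 and 18.6 CPM in controls (−1.49, adjusted p = 0.023), and Act87E least, at 17.4 and 8.33 CPM in RNAi embryos and 14.1 and 11.03 CPM in controls (0.13), with overlap. Without the first control library 1 gene of the 10 was called. Of the neuron genes 6 of 8 lay below both controls, as did 44.0% of all genes, with a median log2 fold change of −1.25.

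The calls for esn, CG15696 and twi were fewer. In esn RNAi embryos Mhc, bt and sls were lower, where 0.699% of all genes were, with Mhc at 49.7 and 38.7 CPM in RNAi embryos and 143 and 200 CPM in controls (log2 fold change −1.88, edgeR adjusted p = 0.0404). The groups lay apart in Mhc, which changed most. Act87E changed least, at 17.3 and 10.2 CPM in RNAi embryos and 20.98 and 31.9 CPM in controls (−0.87, adjusted p = 0.226), also below both controls, as 31.5% of all genes were. The number called was 10 without the first RNAi library, 6 without the first control, 1 without the second control and 0 in a fit of the window's libraries that share the controls.

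CG15696 had 1 RNAi library at 0–1.5 hours, so the spread comes from the controls alone and is assumed to hold for it. Of the 10 genes 6 were called lower, where 2.04% of all genes were, yet for 9 of the 10 its value lay between the 2 controls. Mhc was at 17.7 CPM in the RNAi library and 11.9 and 130 CPM in the controls (log2 fold change −1.63). The largest change was that of sls, at 3.66 CPM in the RNAi library and 4.21 and 40.3 CPM in controls (−2.23), and the smallest that of wupA, at 7.41 CPM in the RNAi library and 3.31 and 30.0 CPM in controls (−0.80). DESeq2 called none of them.

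In twi RNAi embryos at 0–1.5 hours 5 were higher, where 4.34% of all genes were, all with control values below 1 CPM. These fold changes thus start from very low control levels. Mhc was at 1.28 and 1.41 CPM in RNAi embryos and 0.123 and 0.117 CPM in controls, the lowest 2 of all controls (log2 fold change 3.37, edgeR adjusted p = 0.0287). The largest change was that of wupA, at 0.803 and 0.527 CPM in RNAi embryos and 0.0308 and 0.0269 CPM in controls (4.38, adjusted p = 0.0348). Both genes were above both controls in both RNAi libraries, as 39.6% of all genes were. The smallest was that of bt, at 0.231 and 0.290 CPM in RNAi embryos and 0.139 and 0.539 CPM in controls (−0.49, adjusted p = 0.701), and Act87E again had the opposite sign (−1.10, adjusted p = 0.366). Both overlapped. Without the second RNAi library 1 gene was called.

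Large shifts at 0–1.5 hours were also seen without a call by edgeR. For CG32006 Mhc was at 3.37 and 6.99 CPM in RNAi embryos and 51.2 and 345 CPM in controls. The second of these controls was among the highest libraries of the window. All 10 genes had an unadjusted p under 0.05, a count whose share of all genes is not given, and the smallest edgeR adjusted p was 0.258. The median log2 fold change of the 10 for CG32006 was −4.74. For Bdp1 it was 3.92, with Mhc at 636 and 32.9 CPM in RNAi embryos and 6.78 and 29.9 CPM in controls, and for Kah it was 3.33, with 3.70 and 786 CPM in RNAi embryos and 47.3 and 23.1 CPM in controls. Each of these 2 shifts thus rests on 1 RNAi library. Without the first Bdp1 library the median was 0.42 with none called by edgeR (2 at an unadjusted p under 0.05). Without the second Kah library it was −2.84 with all 10 called lower, where 11.4% of all genes were, the lone RNAi library being assumed to vary like the controls. For E5 it was −2.90, with Mhc at 29.1 and 0.554 CPM in RNAi embryos and 2.01 and 190 CPM in controls, so that the groups overlapped. In the first Bdp1 library sls reached 40.1% of its level at 16–18 hours.

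The genes whose course was most like that of the 10 were ranked over the means of the 64 control groups (16168 genes, log2 of CPM + 1). The highest Pearson's r with the mean of the 10 was that of CG43897 (0.998), followed by Prm (0.997), Mlp60A (0.997), Col4a1 (0.996), vkg (0.996), Glt (0.995), SPARC (0.995), tn (0.995), CG5177 (0.994) and TpnC47D (0.994). Prm, Mlp60A and TpnC47D encode muscle proteins, while Col4a1, vkg and SPARC encode parts of the basement membrane made by hemocytes and fat body. When the mean of each window was subtracted and the 255 libraries of 6–8 hours and later were used with 10090 genes, Prm led with 0.961 (0.944 without the 4 caup libraries) and Mlp84B, a muscle LIM protein gene, followed with 0.939. Without the caup libraries Mlp84B (0.894) came after Esyt2 and Tep3 (0.897 each), which are in none of the marker lists.

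Within a window the 10 also tracked each other unevenly. The r of each gene's deviation with the mean of the other 9 was 0.942 for up, 0.935 for Tm2, 0.914 for Mhc, 0.895 for Act57B, 0.879 for Mlc2, 0.866 for Mlc1, 0.863 for wupA and 0.852 for Act87E, but 0.749 for bt and 0.732 for sls. The light chain genes formed the closest pair (0.958). The elastic protein genes had 0.906 with each other and sls had 0.464 with Mlc1. The libraries share windows and control sets, so these values carry no p.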

How the data were processed

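The authors aligned reads of poly(A) RNA libraries made with a strand-keeping kit to release 6 of the genome (dm6) with STAR 2.7.3a. They deposited whole-number counts per gene, which were used as deposited. Per the labels these came from HTSeq 0.12.4, and the study's methods also name featureCounts. Whether reads were counted by strand is not given in the sources used here. The 5 summary lines of reads on no gene (3.52% to 20.7% of a library) were left out.

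Each TF and window was compared with its own controls by edgeR 4.0.16 in R 4.3.3 (quasi-likelihood test, TMM, filterByExpr with a minimum count of 10, Benjamini-Hochberg adjustment over all genes tested). A call needed an adjusted p of at most 0.1 and a log2 fold change of at least 0.5 in size. For the difference between windows the adjusted p alone decided. The 10 genes passed the filter in 449 of 450 tests at 0–1.5 hours (sls did not for twi), 470 of 470 at the middle windows and 450 of 450 at 16–18 hours. Fold changes use the scaling of their own comparison and CPM the scaling over all libraries, so that ratios of CPM can differ from them. Group sizes of 2 limit the precision of every p. The script was tested on simulated counts.

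Alternatives were RLE scaling, no filter, DESeq2 1.42.0, a replicate block, 1 fit per window, an adjusted p of 0.05, leaving out replicates, no covariate and summed replicates between windows, and plain or RLE-scaled CPM. The fit of later controls and the crossed numbers were added after the data had been seen. The genes and the marker lists were chosen with earlier results of these data known. The text gives comparisons with at least 3 of the 10 genes called in full, with values per library for Mhc and for the largest and smallest change, comparisons with 1 or 2 calls by gene, and the genes with the highest r. Other genes and comparisons named were chosen after their values were seen, among them Bdp1, Kah, E5, CG32006, dmrt99B, Sox14 at 6–8 hours and the TFs with known parts in muscle.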

Additional observations from a re-analysis of the deposited data

Results flagged for a closer look

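At 2–4 hours, 1 of the 4 control libraries lay far from the others in 7 of the 10 genes by Dixon's test at 95%, which flags about 1 in 20 groups by chance, and 40 groups of a gene and window were tested. It was the second library of the set shared by CG15696, su(Hw), gfzf and cad. It had 402.5 CPM of Mhc, 76.46 of Mlc1, 238.2 of Mlc2, 87.82 of Tm2, 90.28 of wupA, 152.6 of up and 135.9 of bt.

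The change of a gene after RNAi differed between the middle window and 16–18 hours for 2 TFs, by the test of that difference in 1 edgeR model (middle window minus 16–18 hours, log2). For caup it was −2.52 for Mhc, −2.47 for Mlc1, −2.44 for Mlc2, −2.46 for Act57B, −2.73 for Act87E, −2.56 for Tm2, −2.56 for wupA, −2.50 for up, −2.72 for sls and −2.95 for bt. All 10 were called lower in RNAi embryos at 10–12 hours, and at 16–18 hours 3 were, while the groups of bt overlapped. For scro it was −0.99 for Mhc, −0.87 for up, −1.36 for sls and −1.44 for bt, where the RNAi libraries were lower at 12–14 hours and Mhc and sls were higher at 16–18 hours without passing the test.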

How the results depend on the processing

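Direction and call held for 226 of the 263 values of a named gene under an alternative, 31 lost the call, 4 gained it and 2 reversed. The reversed values were those of Act87E for sens at 0–1.5 hours, −0.45 without the first RNAi library and −0.05 without the second control, within a range of −0.45 to 0.52. With 2 libraries a group the calls near the threshold depended on single libraries. Low counts kept a gene from being tested once, sls for twi at 0–1.5 hours. The cause of each move below was not tested.

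At the middle windows the 17 calls of lower genes became 11 after RLE scaling and 18 to 40 without 1 replicate, and the 7 of higher genes became 2 to 13 without 1 replicate. At 16–18 hours the 5 lower calls became 2 after RLE scaling, 8 without the filter, 9 by DESeq2, 11 in 1 fit per window, 1 at an adjusted p of 0.05 and 3 to 17 without 1 replicate. The absent higher calls there became 1 without the filter, 2 by DESeq2, 2 in 1 fit per window and 3 to 12 without 1 replicate. At 0–1.5 hours the 40 calls became 89 without the filter, 77 by DESeq2 and 86 to 133 without 1 replicate. Of the 14 differences between windows 0 passed after RLE scaling, 6 at an adjusted p of 0.05 and 1 to 29 without 1 replicate (28 without the second control of 16–18 hours).

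For caup at 16–18 hours the 3 calls became 0 after RLE scaling, 6 without the filter, 6 by DESeq2, 9 in 1 fit per window, 0 at an adjusted p of 0.05 and 0 to 10 without 1 replicate. For scro at 12–14 hours the 6 calls became 0 after RLE scaling, 3 without the filter, 3 by DESeq2, 3 in 1 fit per window, 1 at an adjusted p of 0.05 and 0 to 6 without 1 replicate. For twi at 2–4 hours the 8 became 0 to 8 without 1 replicate and at 0–1.5 hours the 5 became 1 to 7. For esn the 3 became 9 without the filter, 9 by DESeq2, 0 in 1 fit per window and 1 to 10 without 1 replicate. For sens the 7 became 1 to 9 without 1 replicate, and for CG15696 the 6 became 0 by DESeq2 and 0 in 1 fit per window.

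Same-numbered libraries of RNAi and control groups did not deviate together in most comparisons. Over 134 comparisons the correlation of their deviations had a median of −0.01 and a range of −0.73 to 0.82. It was above 0.1 in 50 and below −0.1 in 44, so the numbers were not used as pairs in the main fits. The labels do not say whether equal numbers mark a shared collection, and single comparisons may be paired. With the replicate block the lower calls at 16–18 hours became 2 and the higher calls 1, the calls at 0–1.5 hours 75, those of caup at 16–18 hours 0, of scro 1 and of esn 9. With crossed numbers where the correlation was below −0.1, the replicate block gave 17 higher calls at the middle windows, 2 lower calls at 16–18 hours and 104 calls at 0–1.5 hours.

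Between control windows the 12 higher calls became 20 without the covariate, 5 with replicates summed, 4 to 8 without 1 replicate and 30 in the fits of 6–8 hours and later, with or without the twi controls. The absent lower calls became 1 after RLE scaling, 1 without the covariate, 1 by DESeq2 and 2 in either fit of later windows. Of 320 control levels 288 moved by less than 1 SD. After RLE scaling the medians at 8–10 hours were 865.8 CPM for Mhc, 1842 for Act57B, 150 for Act87E and 242.3 for wupA. At 14–16 hours they were 11550 for Mhc, 20430 for Act57B, 1957 for Act87E, 3397 for Mlc1, 9014 for Mlc2, 3450 for Tm2, 2930 for wupA, 5620 for up, 1370 for sls and 3495 for bt, and at 16–18 hours 10290 for Mhc, 19190 for Act57B, 3312 for Mlc1, 8991 for Mlc2, 3189 for Tm2, 2796 for wupA, 4822 for up and 841.8 for sls. Without further scaling those at 8–10 hours were 990.1 for Mhc, 2106 for Act57B, 171.5 for Act87E, 264 for Mlc1, 768.6 for Mlc2, 263.1 for Tm2, 277.1 for wupA, 474.6 for up, 309.4 for sls and 295.6 for bt.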

Other observations

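Of the single genes outside the calls, Projectin (bt) had its highest log2 fold changes after RNAi of toe at a middle window (0.83) and of fd59A at 16–18 hours (0.74), and its lowest at 16–18 hours after RNAi of zfh2 (−0.67). For sls the highest 16–18 hour value was that of ss (0.60), with the controls of scro, and for Act87E that of sens (0.49). None of these was called by edgeR at an adjusted p of at most 0.1.

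Ets65A RNAi at 12–14 hours had a median log2 fold change of −0.36 over the 10 genes, without a call. CG33557 RNAi at 6–8 hours had −0.44.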
